A study of Mus musculus with 16 samples.

Results

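The genes described here are 36 genes known as markers, receptors or secreted products of the macrophages of fat. They were chosen by name, and their probes were found by matching each probe's RefSeq accession to a gene symbol. All 36 were among the 19096 genes named on the arrays, through 50 probes, and all 36 were among the 15460 genes that were tested. They include 4 genes of resident macrophages (Lyve1, Mrc1, Timd4 and Folr2) and 3 genes of lipid-associated macrophages (Trem2, Cd9 and Gpnmb), which are kept apart below.

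The arrays measured total RNA of whole adipose tissue from male mice. The 4 groups were brown fat of mice whose glucocorticoid receptor gene Nr3c1 was knocked out in adipose tissue, brown fat of control mice (called wild-type in the design text), white fat of such knockout mice and white fat of control mice, with 4 arrays each. The promoter or Cre line behind the knockout, the strain, the age and the white depot are not given in the sources used here. A knockout confined to adipose tissue may leave the receptor in other cells of the tissue, and the labels do not say which cells lost it.

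Adipose tissue macrophages take up dead adipocytes and the lipid that these release. Resident macrophages lie along vessels, last for long periods and carry scavenging receptors such as CD206 (Mrc1) and LYVE-1. Lipid-associated macrophages gather around dying adipocytes in obesity and switch on Trem2 and genes of lysosomal lipid handling. Glucocorticoids acting on macrophages themselves are known to raise scavenger receptors, with Cd163 and Mertk among the best known.

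A level below is the log2 processed intensity of a probe minus the 75th percentile of its array, so that 0 is the intensity of a fairly bright probe. Levels compare arrays for 1 gene and are not compared between genes. A gene was called changed at a Benjamini-Hochberg adjusted p below 0.05 over all 15460 genes in limma. Spots well above background made up 67.3% to 77.0% of each array, and none was saturated. Of the members, 35 were well above background on all 16 arrays, and Spi1, which encodes the myeloid transcription factor PU.1, was so on 15.

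Some arrays of a group were so alike (differences within the error stated by the scanner, at most 12 of 9836 bright probes over 2-fold apart) that they were averaged and counted as 1 sample. This left 9 samples. In both tissues the knockout samples were array 1 and the mean of arrays 2, 3 and 4. The brown control samples were array 1, the mean of arrays 2 and 3, and array 4. The white control samples were the mean of arrays 1 and 4 and the mean of arrays 2 and 3. The p-values measure the spread between these samples, and the small number of arrays limits the precision.

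Nr3c1 followed the labels, since it was lower on every knockout array than on every control array of the same tissue, at 1.50 to 1.76 in brown knockout against 2.29 to 2.63 in brown control, and at 1.23 to 1.50 in white knockout against 2.01 to 2.43 in white control. Ucp1, the uncoupling protein that defines brown adipocytes, went against 1 brown sample. It lay at 5.63 to 5.85 on the brown knockout arrays and at 6.54, -0.83, -0.83 and 8.07 on brown control arrays 1 to 4, while white arrays lay at -2.52 to -0.91. The brown control sample on arrays 2 and 3 therefore carried a Ucp1 level close to that of white fat. The counts of called members and the members' medians in comparisons with brown control fat are also given without this sample. The counts of lower members and of arrays that do not overlap, and the values of roles and other gene lists, include it. All brown samples held skeletal muscle transcripts, with a summed linear level of 14 muscle genes of 3102.5 and 1763.4 in the brown knockout samples and 4063.3, 4174.6 and 3375.3 in the brown control samples, against 11.0 and 10.4 in white knockout and 3.6 and 4.8 in white control.

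Promoter sequences are shown for 4 members that stand for the patterns described below. Trem2, a receptor for lipids on macrophages, and Mertk, a tyrosine kinase receptor that takes up dead cells, passed the test between the tissues. Mrc1, the mannose receptor CD206, and C1qc, a chain of complement C1q, were picked because they hold the ETS core searched for. Each is the 250 bases before the RefSeq transcription start in GRCm38.p6, 5′ to 3′ on the gene's strand, and capitals mark the core ACTTCC, the reverse complement of GGAAGT.
Trem2 (chr17:48346151-48346400, plus strand): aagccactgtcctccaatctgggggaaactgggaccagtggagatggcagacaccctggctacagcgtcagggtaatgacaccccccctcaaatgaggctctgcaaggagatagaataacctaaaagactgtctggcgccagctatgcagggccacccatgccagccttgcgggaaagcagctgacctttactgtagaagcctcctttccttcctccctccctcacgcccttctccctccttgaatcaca
Mertk (chr2:128698665-128698914, plus strand): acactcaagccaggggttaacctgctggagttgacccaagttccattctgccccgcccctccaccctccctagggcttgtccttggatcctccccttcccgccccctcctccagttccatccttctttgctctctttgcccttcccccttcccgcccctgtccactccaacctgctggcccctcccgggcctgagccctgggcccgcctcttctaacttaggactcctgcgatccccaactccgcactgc
Mrc1 (chr2:14229164-14229413, plus strand): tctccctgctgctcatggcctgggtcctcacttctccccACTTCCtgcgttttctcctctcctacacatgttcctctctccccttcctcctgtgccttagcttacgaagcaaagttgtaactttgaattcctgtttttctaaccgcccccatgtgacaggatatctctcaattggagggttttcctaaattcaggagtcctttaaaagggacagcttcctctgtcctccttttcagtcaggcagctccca
C1qc (chr4:136892915-136893164, minus strand): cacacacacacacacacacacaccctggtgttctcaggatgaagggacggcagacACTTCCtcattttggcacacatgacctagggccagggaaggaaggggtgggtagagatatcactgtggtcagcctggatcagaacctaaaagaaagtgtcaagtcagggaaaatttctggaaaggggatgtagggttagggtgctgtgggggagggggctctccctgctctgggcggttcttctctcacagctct
RefSeq gave 29 promoters for 26 of the 36 members. The core GGAAGT, which PU.1 and other ETS factors bind, stood on either strand in 13 of these 29 promoters and in 19.7% of 32851 mouse promoters of the same length. The longer string GAGGAAGT, which contains that core, stood in 2 of the 29 (C1qc and Retnla) and in 2.44% of all promoters. The palindrome ACANNNTGT, the core of the glucocorticoid receptor's own element with N for any base, stood in 9 of the 29 (of 8 members, among them Gpnmb, Timd4, Chil3 and Itgax) and in 5.84% of all. Its longer form, with a G before and a C after it at a distance of 1 free base, stood in none of the 29 and in 0.387% of all. The strings were chosen after several had been tried and the longer form looked at first, the matches are a description of these letters, and nothing is drawn from them about the factors.

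In control mice the macrophage genes were lower in brown than in white fat. The mean was lower in brown for 35 of 36 members (55.2% of all genes), with a median log2 difference of -1.12 over the members and -0.09 over all genes tested. Lyve1, Trem2 and Mertk fell (3 of 36, against 1.13% of all genes called lower), and none rose (3.92%). All 4 brown control arrays lay below all 4 white control arrays for 26 of 36 members, against 26.0% of all genes. In whole tissue, fewer macrophages and less of an RNA in each macrophage cannot be told apart.

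The largest of the called falls were in a resident and a lipid-associated gene. Lyve1, the hyaluronan receptor of perivascular macrophages and of lymphatic vessels, lay at 0.34, 0.17, 0.21 and -0.57 on brown control arrays 1 to 4, against 2.04, 2.43, 2.52 and 2.14 on white control arrays 1 to 4. The groups did not overlap, and brown control fell by 79.6%, a log2 difference of -2.30 ± 0.44 (SE, adjusted p = 0.0335). Trem2 lay at -1.03, -0.91, -0.91 and -1.73 in brown control, against 1.76, 0.44, 0.55 and 1.75 in white control. Every brown array was again below every white one, although the 2 white control samples stood more than 1 log2 unit apart, and brown control fell by 80.3% (-2.34 ± 0.50, adjusted p = 0.0452).

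Mertk was called in both genotypes, with a smaller difference and a smaller error. In knockout mice it lay at -1.54, -1.47, -1.24 and -1.36 in brown fat and at -0.26, -0.24, -0.02 and -0.10 in white fat, and in control mice at -1.35, -1.54, -1.70 and -1.49 in brown and at -0.44, -0.29, -0.37 and -0.64 in white fat. No brown array overlapped a white one. The brown level fell by 58.2% in knockout mice (-1.26 ± 0.21, adjusted p = 0.0392) and fell by 51.8% in control mice (-1.05 ± 0.19, adjusted p = 0.0278).

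The other resident genes were lower in brown control fat by less. Mrc1 lay at 1.18, 0.69, 0.96 and 0.49 in brown control against 1.80, 1.48, 1.49 and 1.79 in white control, and Folr2, folate receptor beta, at 1.48, 1.27, 1.32 and 1.07 against 2.18, 1.85, 1.85 and 2.24. Neither overlapped, but the differences of -0.81 ± 0.31 (adjusted p = 0.188) and -0.75 ± 0.39 (adjusted p = 0.311) missed the threshold. Timd4, the phosphatidylserine receptor TIM-4, lay at 0.97, -2.26, -2.28 and -3.58 in brown control and at -0.63, -1.09, -1.14 and -0.64 in white control. Brown control array 1 was above, and the other 3 were below, all white control arrays.

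Cd9 and Gpnmb did not share the difference seen in Trem2. Cd9, a tetraspanin that many other cells also carry, lay at 2.92, 3.27, 3.12 and 2.77 in brown control and at 3.10, 2.96, 3.01 and 3.18 in white control (-0.10 ± 0.42, adjusted p = 0.895). Gpnmb, a lysosomal glycoprotein, lay at -2.73, -2.56, -2.57 and -2.32 in brown control and at -2.14, -2.41, -2.22 and -2.21 in white control (-0.29 ± 0.74, adjusted p = 0.829). Both pairs of groups overlapped.

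All 11 genes of the lineage and myeloid core had lower means in brown control fat, with a median of -1.13, and none was called by limma, 3 having an unadjusted p below 0.05. Adgre1, which encodes the macrophage antigen F4/80, lay at 1.53, 1.73, 1.69 and 1.31 in brown control against 2.74, 2.38, 2.43 and 2.72 in white control (-1.05 ± 0.32, adjusted p = 0.117). Csf1r, the receptor for the macrophage growth factor CSF1, lay at 1.29, 1.03, 0.92 and 0.90 against 2.33, 2.57, 2.37 and 2.19 (-1.31 ± 0.54, adjusted p = 0.208). Brown arrays were below white arrays throughout for both.

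The same held for 2 further lineage genes. Cd68, a lysosomal membrane protein of phagocytes, lay at -0.66, -0.83, -0.67 and -0.87 in brown control and at 0.31, 0.41, 0.47 and 0.28 in white control (-1.13 ± 0.63, adjusted p = 0.334). Itgam, the integrin CD11b, lay at -2.61, -3.10, -2.74 and -3.53 in brown control and at -1.89, -2.06, -1.88 and -1.77 in white control (-1.12 ± 0.37, adjusted p = 0.136). The 3 chains of complement C1q, C1qa, C1qb and C1qc, which macrophages secrete, differed by -1.23 to -1.55 without overlap (adjusted p = 0.124 to 0.207). Fcgr3, a low-affinity Fc receptor, was the nearest to the threshold of the uncalled members (-1.22 ± 0.29, adjusted p = 0.0637). Chil3, a chitinase-like secreted protein, was the 1 member with a higher mean in brown control (0.91 ± 0.60, adjusted p = 0.400).

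**Figure D1:**
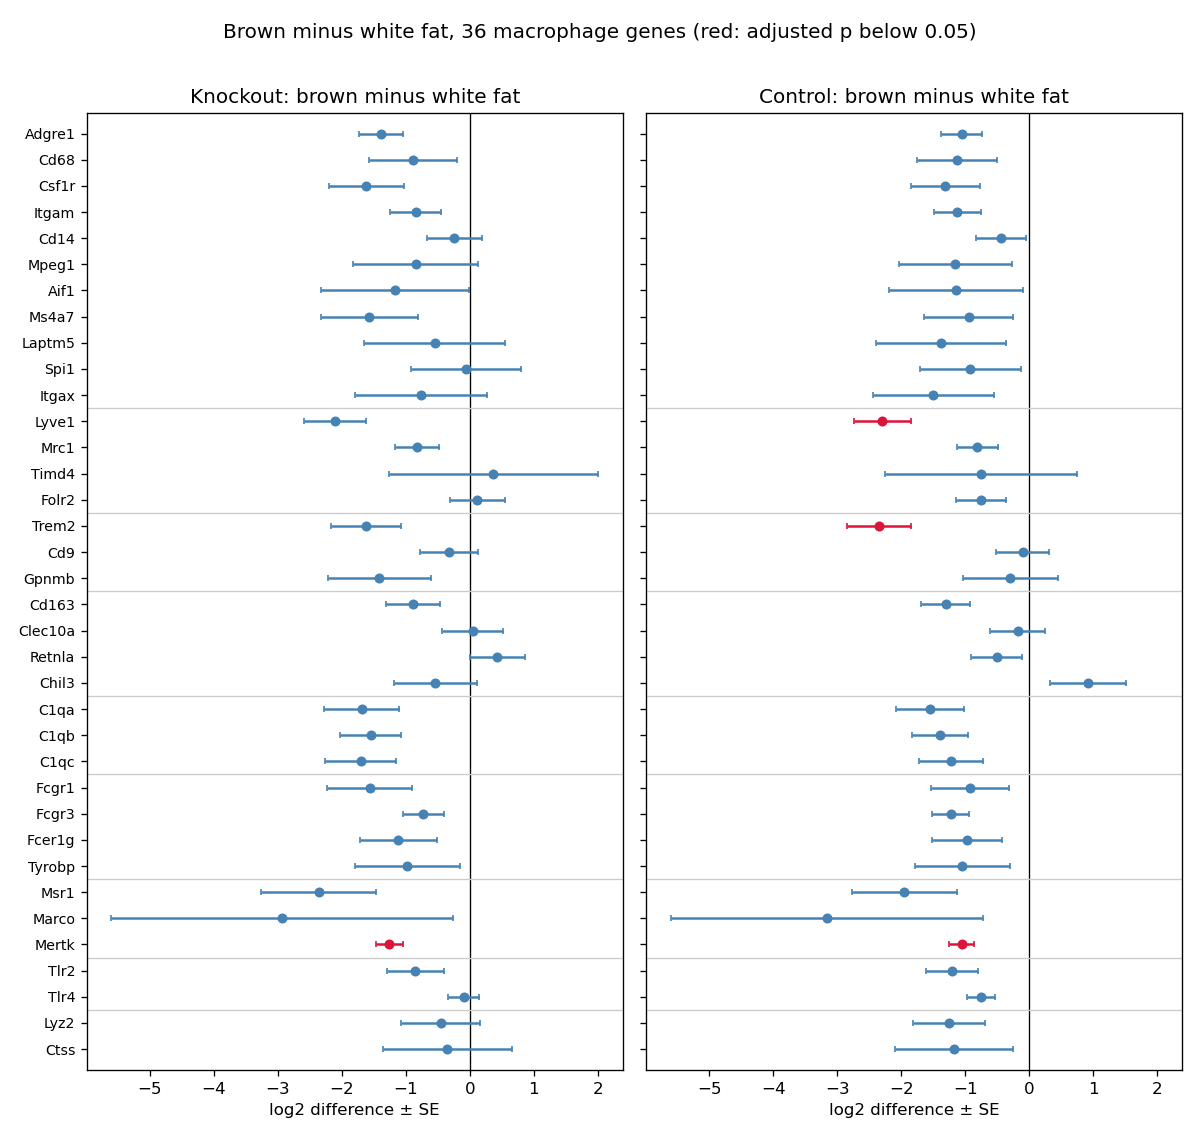
Log2 difference of brown minus white fat for the 36 macrophage genes (one per line), in knockout mice on the left and control mice on the right, with bars of 1 SE from limma and red for an adjusted p below 0.05. In knockout mice 32 of 36 points lie left of 0 and 1, Mertk, is red, and in control mice 35 lie left of 0 and 3 are red.

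In knockout mice the means were lower in brown than in white fat for 32 of 36 members (52.9% of all genes), with a median of -0.87 against -0.04 over all genes. Mertk was the 1 member called, where 0.22% of all genes were called lower. The groups did not overlap for 13 of 36 members, against 13.3% of all genes. Lyve1 lay at 0.65, 0.03, -0.03 and 0.06 in brown knockout and at 1.86, 3.06, 3.01 and 2.99 in white knockout (-2.10 ± 0.48, adjusted p = 0.105), and Trem2 at -1.99, -1.40, -1.47 and -1.51 against 0.42, -0.61, -0.69 and -0.60 (-1.62 ± 0.55, adjusted p = 0.243). Neither gene overlapped between the tissues. The 4 members with higher means in brown knockout were Timd4, Folr2, Retnla and Clec10a (0.04 to 0.43, adjusted p = 0.708 to 0.986).

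The number of calls between the tissues was set by few samples. Leaving out brown control array 1, brown control array 4 or the brown control sample with the low Ucp1 level gave 0 called members in both genotypes. These samples touch the comparison within knockout mice through the spread that the 4 groups share. Knockout samples mattered too, in fits that leave 1 sample in a knockout group. Mertk in knockout mice was not called without brown knockout array 1 (-1.17) or white knockout array 1 (-1.33). Nor was it called without the knockout samples on arrays 2, 3 and 4 (-1.28). Trem2 in control mice was not called without brown knockout array 1. The members' median without the low-Ucp1 sample was -1.15 in control mice. With the 16 arrays as separate samples 15 members were called lower in knockout mice (12.7% of all genes) and 18 in control mice (19.5%), and a block for the replicate number made these 16 and 20. No slide held brown and white fat of 1 genotype. A fit with the slide as a block thus reaches the tissue difference of 1 genotype only through a group of the other genotype. This fit also counts the 16 arrays apart. In it Mertk (-1.29) was called in knockout mice and Lyve1 (-2.61) and Mertk (-1.13) in control mice. Trem2 in control mice was at -1.57 with an adjusted p of 0.230.

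Markers of other cells differed between the tissues as well. Among 8 lymphatic endothelial genes 7 had lower means in brown control fat and 3 were called, Mmrn1 (-3.26 ± 0.35, adjusted p = 0.00307), Reln (-2.08) and Flt4 (-1.59). Their summed linear level was 8.7 and 46.2 in brown knockout, 2.6 to 3.0 in brown control, 15.5 and 129.1 in white knockout and 14.9 and 31.5 in white control. This sum mostly followed 1 gene, Ccl21a, with log2 levels of 2.78 and 5.49 in brown and 3.32 and 6.98 in white knockout. The median log2 level over the 8 genes ran the other way, at -2.05 and -3.55 in brown and -0.91 and -1.66 in white knockout. In control it was -3.31 to -2.94 in brown and -1.22 and -1.03 in white fat. Prox1, the defining transcription factor, was well above background on 10 of 16 arrays. Lyve1 is also a gene of these vessels, and their part in its difference was not tested. All 12 blood endothelial genes had lower means in brown control fat, with Plvap (-1.67), Cldn5 (-1.06) and Pecam1 (-1.05) called. Of 10 mesothelial genes 6 were called lower, led by Wt1 (-7.43), and of 14 skeletal muscle genes 14 were called higher, led by Actn3 (10.87); in knockout mice 1 mesothelial gene and all 14 muscle genes were called the same way. The part of these cells in the macrophage differences was not tested.

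**Figure D2:**
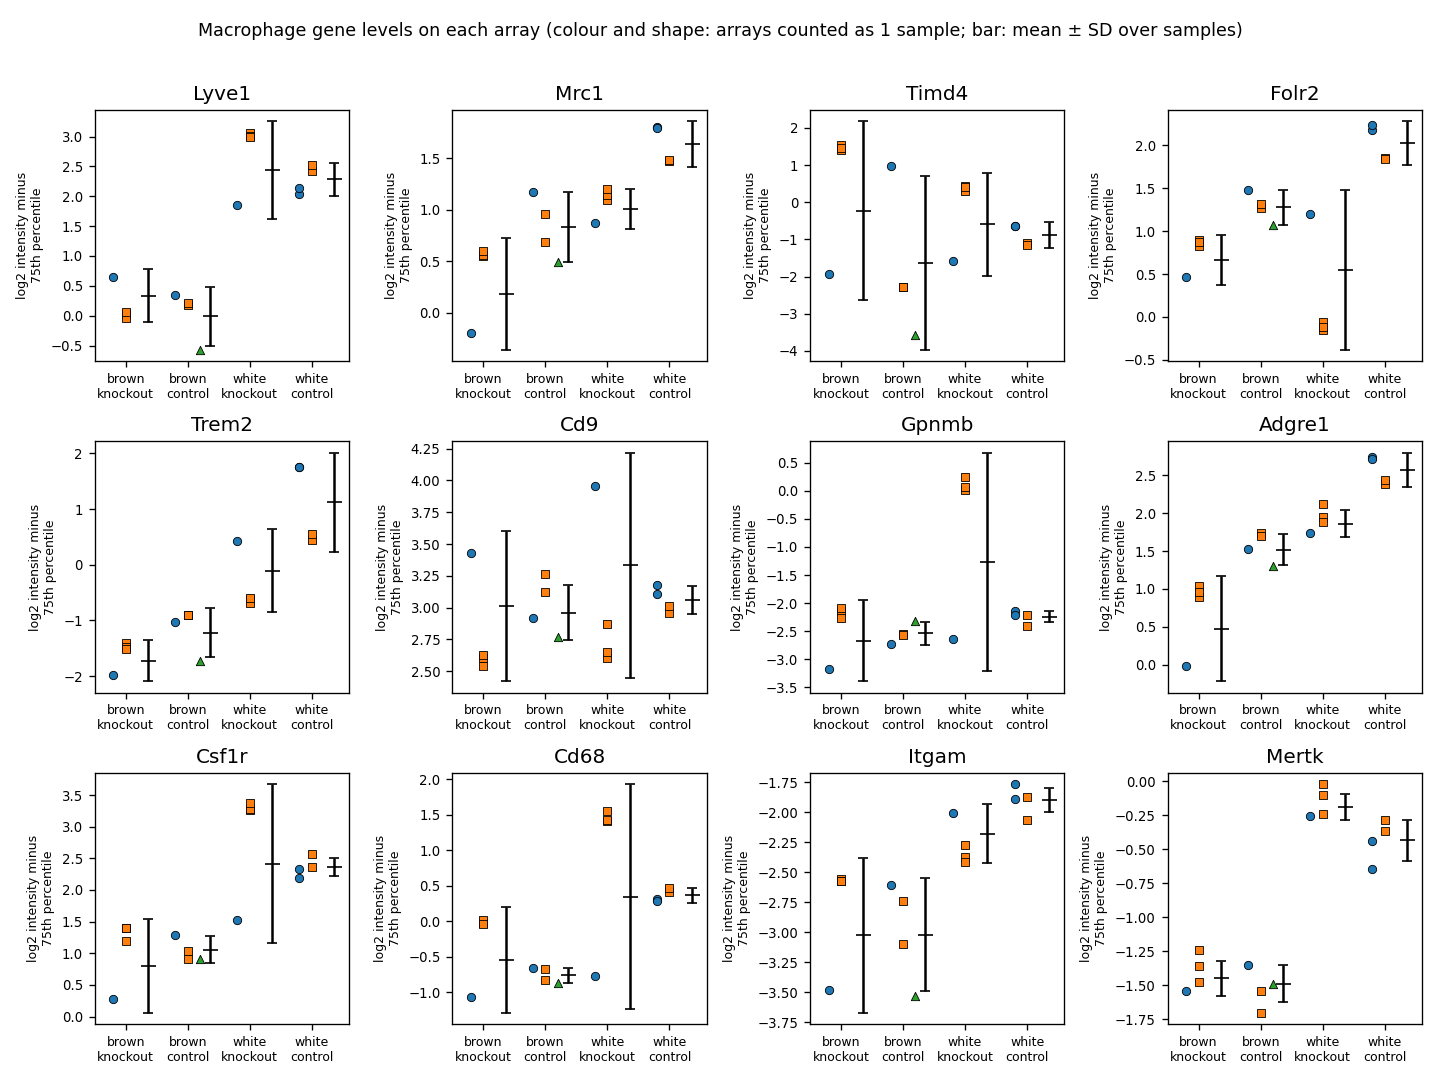
Log2 level of 12 macrophage genes on every array (vertical axis, log2 intensity minus the array's 75th percentile), with the groups from left to right brown knockout, brown control, white knockout and white control. Points are arrays, points of 1 colour and shape are arrays counted as 1 sample, and the bar is the mean ± SD over samples. The white knockout points of Csf1r, Cd68 and Gpnmb split into array 1 and the other 3 arrays, and Mertk separates brown from white on every array.

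The knockout comparison asked what loss of the receptor in adipose tissue did to the macrophage genes of each depot. No member was called in brown fat (0 of 36, against 0.0% of all genes in either direction) or in white fat (0 of 36, against 0.0%). In brown fat the mean was lower in knockout for 20 of 36 members (60.1% of all genes), with a median of -0.12, the same as the -0.12 over all genes. In white fat it was lower for 17 of 36 (52.6% of all genes), with a median of 0.05 against -0.04 over all genes. At an unadjusted p below 0.05 there were 2 members and 1090 genes in brown fat, and 4 members and 1546 genes in white fat. Without the low-Ucp1 control sample, brown fat again had no called member or gene, 1 member and 546 genes at an unadjusted p below 0.05, and a median of -0.09 over the members.

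The macrophage genes of alternative activation had lower means in knockout fat, 4 of 4 in each tissue (60.1% of all genes in brown and 52.6% in white fat). Their medians were -0.55 in brown and -0.78 in white fat, against -0.12 and -0.04 over all genes. Without scaling between arrays the median over all genes was 0.31 in brown fat, and the brown differences of these 4 genes shift up with it. The smallest of them with scaling, that of Clec10a (-0.41 ± 0.43), is of the size of this shift. The count of 4 of 4 in brown fat is therefore given for scaled values only. Retnla, a secreted resistin-like protein typical of macrophages exposed to interleukin 4, lay at 4.43, 4.11, 4.14 and 4.09 in brown knockout against 4.88, 4.89, 5.11 and 4.73 in brown control. In white fat it lay at 4.54, 3.25, 3.13 and 3.03 in knockout against 5.41, 5.26, 5.40 and 5.46 in control. Knockout arrays were below control arrays in both tissues, with log2 differences of -0.60 ± 0.39 in brown (adjusted p = 0.623) and -1.54 ± 0.43 in white fat (adjusted p = 0.423).

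Cd163, the haemoglobin scavenger receptor and a known glucocorticoid target in macrophages, was likewise lower on every knockout array than on every control array, with differences of -0.51 ± 0.38 in brown (adjusted p = 0.641) and -0.93 ± 0.42 in white fat (adjusted p = 0.506). In white knockout it stood at 2.33 on array 1 and at 0.90 to 0.96 on the others, against 2.42 to 2.67 in white control. Chil3 lay at -2.73, -3.51, -3.03 and -3.75 in brown knockout and at -2.53, 0.90, -2.73 and -1.03 in brown control (-1.59 ± 0.60, adjusted p = 0.619). Knockout array 1 and control array 3 were equal to 2 decimals, and control array 2, averaged with array 3, was more than 3 log2 units above it. In white fat Chil3 lay at -2.02, -3.26, -2.95 and -2.98 in knockout and at -1.82, -2.80, -2.86 and -2.14 in control, which overlapped.

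The resident genes differed among themselves. Folr2 lay at 0.46, 0.83, 0.89 and 0.88 in brown knockout against 1.48, 1.27, 1.32 and 1.07 in brown control, and at 1.20, -0.15, -0.06 and -0.12 in white knockout against 2.18, 1.85, 1.85 and 2.24 in white control. It was below all control arrays on every knockout array, with differences of -0.62 ± 0.39 in brown (adjusted p = 0.619) and -1.48 ± 0.43 in white fat (adjusted p = 0.429). Mrc1 lay at -0.20, 0.55, 0.56 and 0.60 in brown knockout against 1.18, 0.69, 0.96 and 0.49 in brown control, and at 0.87, 1.09, 1.14 and 1.20 in white knockout against 1.80, 1.48, 1.49 and 1.79 in white control. The brown groups overlapped and the white ones were apart, with differences of -0.65 ± 0.31 in brown (adjusted p = 0.619) and -0.63 ± 0.34 in white fat (adjusted p = 0.542).

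Lyve1 overlapped between knockout and control in both tissues, at 0.35 ± 0.44 in brown (adjusted p = 0.757) and 0.16 ± 0.48 in white fat (adjusted p = 0.894). Timd4 lay at -1.93, 1.55, 1.42 and 1.47 in brown knockout against 0.97, -2.26, -2.28 and -3.58 in brown control, and at -1.57, 0.43, 0.31 and 0.40 in white knockout against -0.63, -1.09, -1.14 and -0.64 in white control. Knockout array 1 was low and the other 3 knockout arrays high in both tissues, and control array 1 was high in brown fat. The differences of 1.40 ± 1.50 in brown (adjusted p = 0.712) and 0.28 ± 1.64 in white fat (adjusted p = 0.945) were below their errors.

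Among the lipid-associated genes, Trem2 was lower on every white knockout array (0.42, -0.61, -0.69 and -0.60) than on every white control array (1.76, 0.44, 0.55 and 1.75), a difference of -1.23 ± 0.55 (adjusted p = 0.503). In brown fat, at -1.99, -1.40, -1.47 and -1.51 in knockout against -1.03, -0.91, -0.91 and -1.73 in control, the groups overlapped (-0.50 ± 0.50, adjusted p = 0.693). Gpnmb lay at -2.64, 0.25, 0.01 and 0.08 in white knockout against -2.14, -2.41, -2.22 and -2.21 in white control, and at -3.19, -2.13, -2.27 and -2.08 in brown knockout against -2.73, -2.56, -2.57 and -2.32 in brown control. White knockout arrays 2, 3 and 4 were above and array 1 below all white control arrays, so that the mean difference of 0.98 ± 0.81 (adjusted p = 0.642) describes neither sample.

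Cd9 lay at 3.43, 2.60, 2.54 and 2.63 in brown knockout against 2.92, 3.27, 3.12 and 2.77 in brown control, and at 3.96, 2.87, 2.61 and 2.65 in white knockout against 3.10, 2.96, 3.01 and 3.18 in white control. Here array 1 was the highest knockout array in both tissues and the other 3 were below all control arrays. The means differed by 0.05 ± 0.42 in brown (adjusted p = 0.969) and by 0.27 ± 0.45 in white fat (adjusted p = 0.803).

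Among the lineage genes, Adgre1 was apart between the genotypes in both tissues. It lay at -0.02, 1.03, 0.89 and 0.96 in brown knockout against 1.53, 1.73, 1.69 and 1.31 in brown control, and at 1.74, 2.12, 1.96 and 1.88 in white knockout against 2.74, 2.38, 2.43 and 2.72 in white control. Every knockout array was below every control array of its tissue, with differences of -1.04 ± 0.32 in brown (adjusted p = 0.619) and -0.71 ± 0.35 in white fat (adjusted p = 0.524).

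The other lineage genes with full values split by knockout sample. Csf1r lay at 0.27, 1.40, 1.19 and 1.39 in brown knockout and at 1.53, 3.26, 3.28 and 3.37 in white knockout, which put array 1 below all controls of its tissue in both, and the other 3 arrays above them in white fat and above or among them in brown fat. Of the 2 other kept probes of Csf1r in white fat, 1 had a positive difference (0.44) and 1 a negative one (-0.36). Cd68 lay at -1.07, -0.03, 0.02 and -0.04 in brown knockout and at -0.77, 1.41, 1.43 and 1.56 in white knockout, with array 1 below and the other 3 above all control arrays in both tissues. Their means differed by -0.26 ± 0.54 and 0.21 ± 0.63 in brown and by 0.05 ± 0.59 and -0.02 ± 0.69 in white fat (adjusted p = 0.855 to 0.989). Itgam lay at -3.48, -2.56, -2.58 and -2.57 in brown knockout and at -2.0, -2.37, -2.42 and -2.27 in white knockout, overlapping control in both (-0.01 ± 0.37 and -0.28 ± 0.40).

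Among the members, Laptm5 had the largest positive mean difference in both tissues. Laptm5, a lysosomal membrane protein of blood cells, lay at -0.30, 1.44, 1.48 and 1.72 in brown knockout against -0.26, -1.44, -1.62 and -2.09 in brown control, and at -0.35, 2.70, 2.67 and 2.69 in white knockout against -0.26, 0.62, 0.41 and -0.42 in white control. Knockout array 1 was close to control array 1 in both tissues, and the difference was 1.91 ± 1.01 in brown (adjusted p = 0.619) and 1.09 ± 1.11 in white fat (adjusted p = 0.696). Itgax, the integrin CD11c of dendritic cells and inflammatory macrophages, lay at -1.23, 0.70, 0.76 and 0.70 in brown knockout against -1.50, -1.05, -1.02 and -1.86 in brown control (1.21 ± 0.95, adjusted p = 0.650), and at -1.03, 1.99, 2.12 and 2.02 in white knockout against -0.39, 0.46, 0.49 and -0.44 in white control (0.48 ± 1.04, adjusted p = 0.849). In each tissue 3 of the 4 knockout arrays were above all control arrays.

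Marco, a scavenger receptor known from macrophages of lymphoid tissue, lay at -0.33, 5.07, 5.10 and 5.15 in brown knockout against 4.67, 1.20, 1.13 and -1.17 in brown control. In white fat it lay at 2.62, 7.99, 7.98 and 8.10 in knockout against 3.27, 6.08, 5.99 and 3.52 in control. Its arrays differed by more than 5 log2 units within 3 of the 4 groups, so the differences of 0.83 ± 2.44 in brown (adjusted p = 0.900) and 0.61 ± 2.67 in white fat (adjusted p = 0.926) carry errors larger than themselves. Fcgr1, the high-affinity Fc receptor CD64, lay at -0.92, 0.24, 0.09 and 0.18 in brown knockout against 1.31, 1.06, 1.05 and -0.13 in brown control, and overlapped through control array 4 (-1.12 ± 0.61, adjusted p = 0.619). In white fat it lay at 0.52, 1.81, 1.85 and 1.92 in knockout against 2.09, 1.43, 1.27 and 1.89 in control (-0.48 ± 0.66, adjusted p = 0.769).

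The rest of the members lay between these. Fcgr3 and Tlr4, the receptor for bacterial lipopolysaccharide, were lower on every white knockout array than on every white control array (-0.80 ± 0.32, adjusted p = 0.490, and -0.59 ± 0.24, adjusted p = 0.497), and overlapped in brown fat. Lyz2, the myeloid lysozyme, was higher in brown knockout by 0.93 ± 0.56 (adjusted p = 0.619), and Mertk was higher on every white knockout array by 0.25 ± 0.21 (adjusted p = 0.651). In brown fat knockout arrays lay below all control arrays for 5 members and above for 1, against 16.6% and 11.4% of all genes. In white fat they lay below for 8 and above for 1, against 18.5% and 11.0%.

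Whether any member is called depends on how repeat arrays are counted. With the 16 arrays as separate samples 6 members passed in brown fat, Adgre1, Cd14, Chil3 and Retnla lower (17.8% of all genes) and Laptm5 and Lyz2 higher (12.7%). In white fat 12 passed, with Adgre1, Cd14, Cd163, Clec10a, Fcgr3, Folr2, Mrc1, Retnla, Tlr4 and Trem2 lower (25.7% of all genes) and Gpnmb and Laptm5 higher (19.0%). Without white knockout array 1, Cd163 (-1.62), Folr2 (-2.14) and Retnla (-2.24) fell (3 of 36, against 7.59% of all genes) and Gpnmb (2.36) rose in white fat (1 of 36, against 3.13%), where the remaining knockout sample is assumed to vary like the other groups. With the slide as a block 0 members were called in either tissue, and their medians were 0.04 in brown and -0.02 in white fat. In this layout such a fit rests on the 1 slide that held both genotypes of a tissue. The medians within that slide are therefore the same by construction.

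The knockout differences were not found to differ between the tissues. The brown minus the white difference was negative for 15 of 36 members (48.6% of all genes) and had a median of 0.21 over the members and 0.02 over all genes, with 0 of 36 called (0.0% of all genes) and none of 36 at an unadjusted p below 0.05, against 402 of all genes. The largest were Timd4 (1.12 ± 2.22) on the positive and Chil3 (-1.45 ± 0.88) on the negative side. Retnla differed by 0.94 ± 0.58 and Folr2 by 0.87 ± 0.58, both with an adjusted p of 1. Without the low-Ucp1 brown control sample the members' median was 0.24, with no member or gene called and, at an unadjusted p below 0.05, no member and 244 genes. With 16 separate arrays Tlr4 was called (1.46% of all genes higher).

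The 2 knockout samples of each tissue differed in the levels of the macrophage genes, and of many other genes. Of 9836 bright probes, 977 to 998 in brown and 2778 to 2812 in white fat were over 2-fold apart between their arrays. The median gap between the samples was 1.05 in brown and 1.39 in white fat over the members. It was 1.78 and 3.58 over the T, B and NK cell genes. In brown fat the members' median difference from the control mean was -0.50 on array 1 and 0.26 on arrays 2, 3 and 4, with 9 and 23 of 36 members above that mean. In white fat it was -0.77 on array 1, with 3 of 36 above, and 0.71 on arrays 2, 3 and 4, with 23 of 36 above. The sample on arrays 2, 3 and 4 was above array 1 for 30 of 36 members in brown and 25 of 36 in white fat (83.3% and 69.4%, against 45.4% and 47.5% of all genes).

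The roles parted in the white sample on arrays 2, 3 and 4. There 8 of 11 lineage genes were above the control mean with a median of 1.42, all 3 C1q chains with a median of 0.68, and 3 of 4 Fc receptor genes with a median of 0.53. The 4 alternative activation genes were all below it, with a median of -1.34. On white knockout array 1 the lineage, C1q and Fc receptor medians were -0.84, -1.0 and -0.83, and that of the alternative activation genes -0.22. In brown fat the alternative activation median was -0.65 on array 1 and -0.63 on arrays 2, 3 and 4, while the lineage median was -0.31 and 0.74.

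**Figure D3:**
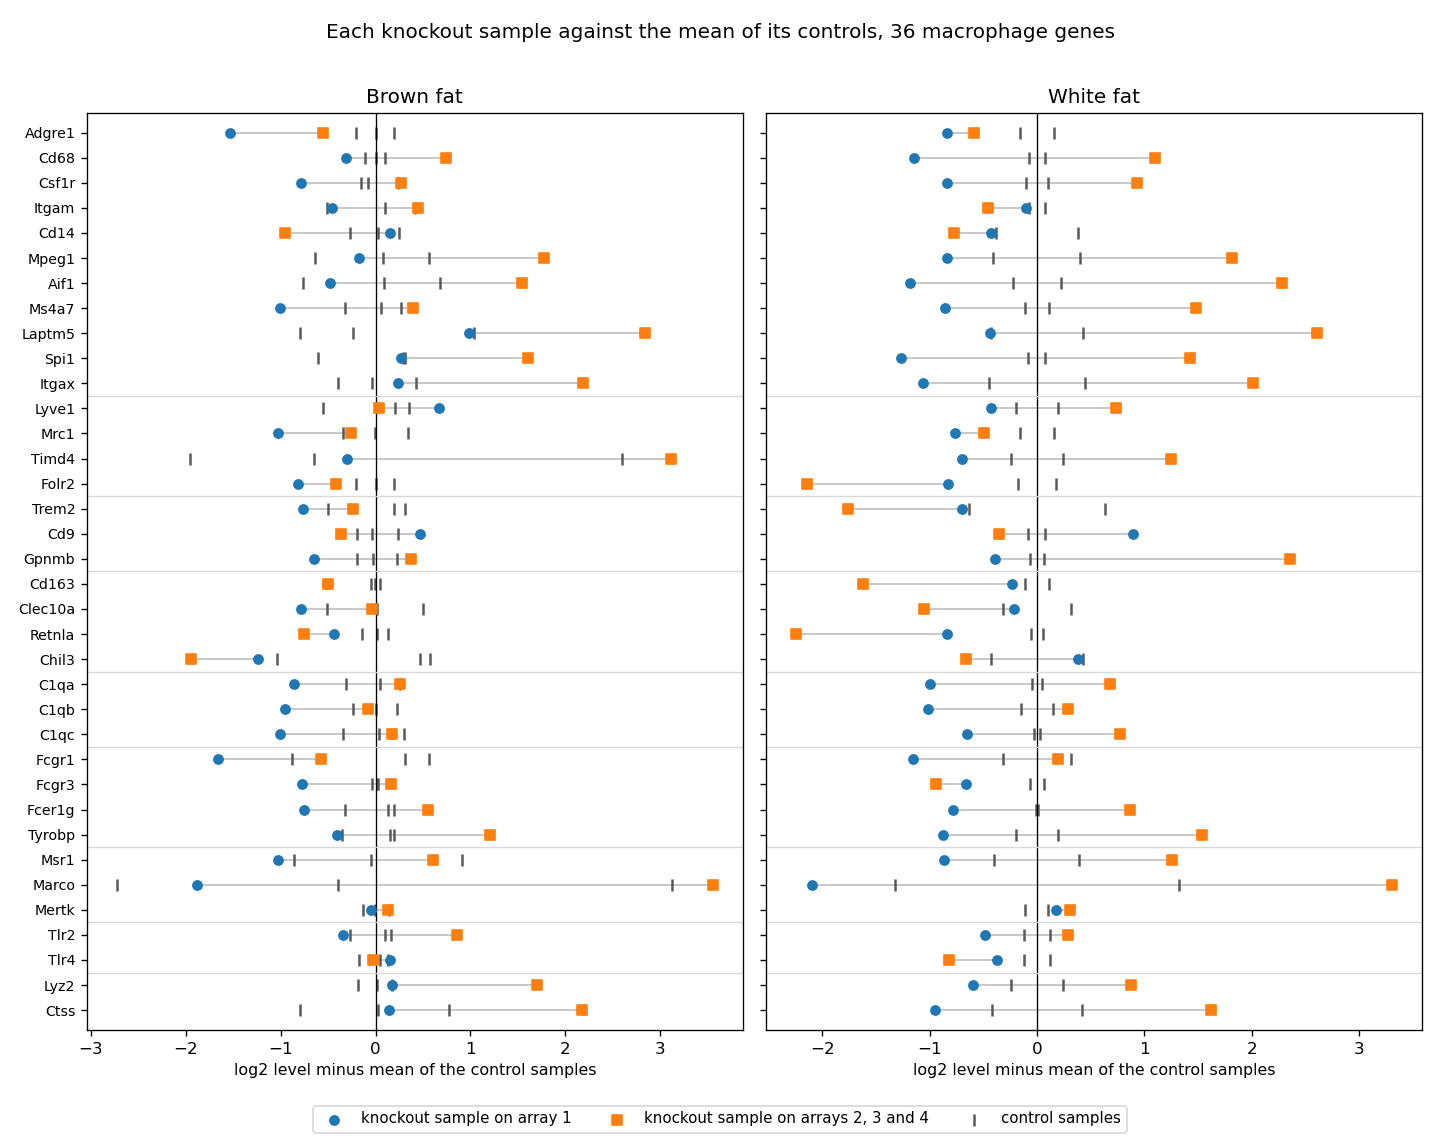
Log2 difference of each knockout sample from the mean of the control samples of its tissue for the 36 macrophage genes, brown fat on the left and white fat on the right, with the control samples as ticks. The sample on arrays 2, 3 and 4 lies above the sample on array 1 for 30 of 36 members in brown and 25 of 36 in white fat.

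Lymphocyte genes differed between the same samples. Of 22 T, B and NK cell genes tested, 19 were above the control mean on brown knockout array 1 and 21 on arrays 2, 3 and 4, and in white fat 2 on array 1 and 22 on arrays 2, 3 and 4. Their summed linear level was 40.2 and 160.8 in the brown knockout samples, 42.0, 5.2 and 3.1 in brown control, 15.9 and 236.3 in white knockout and 9.9 and 47.1 in white control. Their defining markers Cd3d, Cd79a and Ms4a1 were well above background on all 16 arrays, and Ncr1 of NK cells on 11. None of these genes was called by limma for the knockout in either tissue, with 20 of 22 higher means in brown fat (9 at an unadjusted p below 0.05) and 21 of 22 in white fat (none of 22). In the white sample on arrays 2, 3 and 4 the medians were 1.67 over 12 dendritic cell genes, 2.92 over 12 proliferation genes, -1.75 over 13 adipocyte genes and -3.56 over 10 mesothelial genes. The part of these cells in the members' values was not tested.

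**Figure D4:**
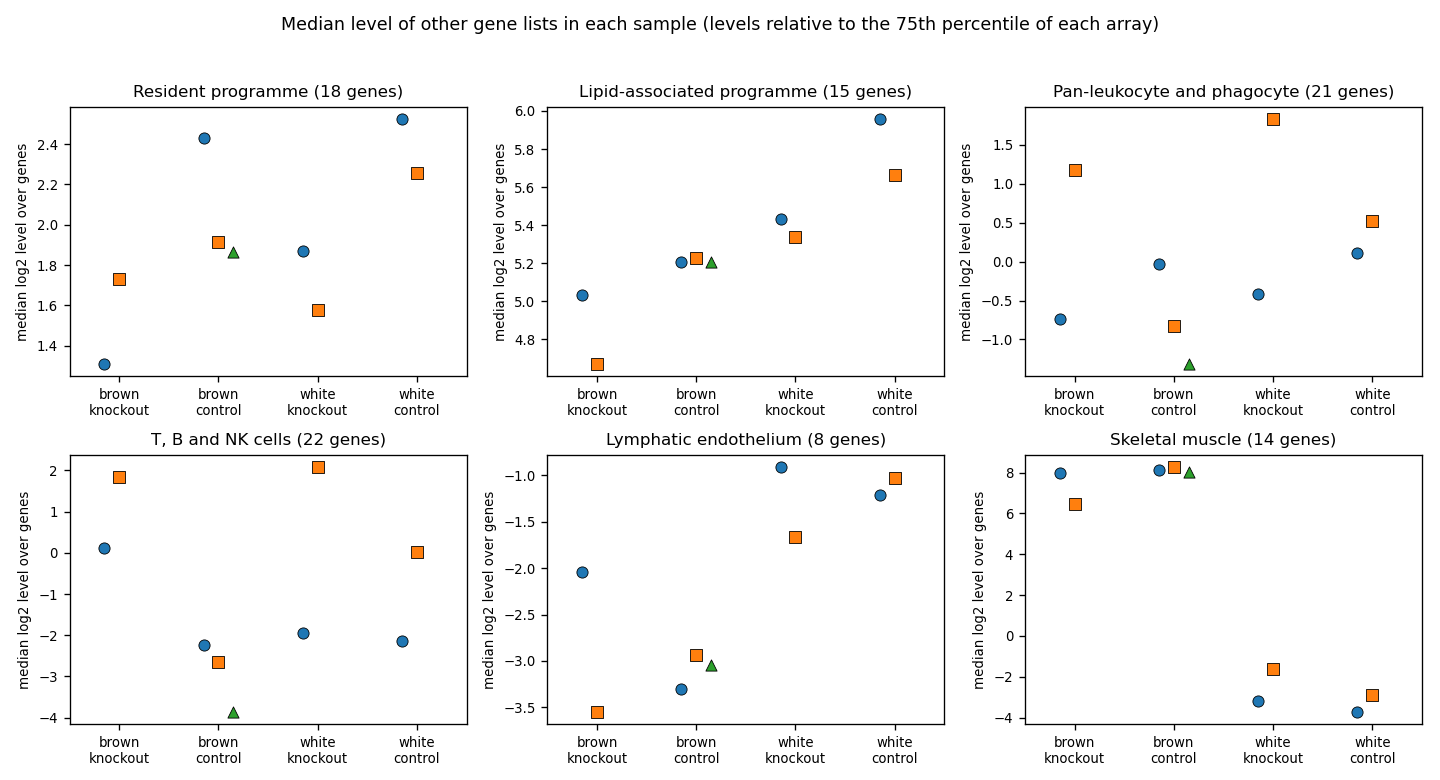
Median log2 level of 6 gene lists in each of the 9 samples (vertical axis, log2 intensity minus the array's 75th percentile). The circle is the sample with array 1, the square the sample with array 2 and the triangle brown control array 4, with the groups from left to right brown knockout, brown control, white knockout and white control. The T, B and NK list stands at 1.85 in the brown and 2.07 in the white knockout sample on arrays 2, 3 and 4, above the other 7 samples, while the companion resident list is at 1.73 and 1.58 there.

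Other genes of the resident programme, in a list of 18 that are not members, were lower in knockout means in 18 of 18 cases in brown fat (median -0.45, though 9 of 18 and -0.02 without scaling between arrays) and 16 of 18 in white fat (median -0.99). The white median was -0.37 on knockout array 1 and -1.77 on knockout arrays 2, 3 and 4, against the control mean. Blood endothelial genes had lower means in knockout as well, for 10 of 12 in brown (median -0.44, though 6 of 12 without scaling) and 11 of 12 in white fat (median -0.53). Of 13 adipocyte genes 12 had lower means in brown knockout (median -0.28, though 0.16 without scaling and 0.06 with quantile normalization) and 13 in white knockout (median -0.89). Neither list had a gene called by limma. At an unadjusted p below 0.05 there were 3 blood endothelial genes in each tissue, and 2 adipocyte genes in brown and 3 in white fat. Their part in the resident list was not tested. None of the 18 resident genes was called by limma, and 3 in brown and 7 in white fat had an unadjusted p below 0.05. The smallest p in brown fat were those of Lilra5 (-1.51 ± 0.50) and the lectin Cd209f (-0.83 ± 0.34), both with an adjusted p of 0.619, and in white fat those of Cd209f (-1.61 ± 0.37) and Cd209g (-1.84 ± 0.45), both with an adjusted p of 0.391. Between the tissues 16 of 18 had lower means in brown control fat. Stab1, a scavenger receptor of resident macrophages and sinusoidal endothelium, fell in brown fat of knockout (-1.58 ± 0.22, adjusted p = 0.0182) and of control mice (-1.42 ± 0.20, adjusted p = 0.0112), and the ficolin Fcna fell in control mice (-2.54 ± 0.49, adjusted p = 0.0335).

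Of 15 further genes of the lipid-associated programme, 12 had lower means in brown knockout (median -0.29, though 0.14 without scaling) and 9 in white knockout (median -0.59). Of all genes, 60.1% and 52.6% had lower means. None of the 15 was called by limma, and 2 and 5 had an unadjusted p below 0.05. Adipocyte genes had lower means in knockout as well, as given above, and their part in this list was not tested. The lysosomal protease Ctsl differed by -0.62 ± 0.19 in brown (adjusted p = 0.619) and by -1.09 ± 0.21 in white fat (adjusted p = 0.285). In control mice 13 of 15 had lower means in brown fat, where Spp1, osteopontin, ran the other way just outside the threshold (2.56 ± 0.56, adjusted p = 0.0511). Fabp5, Atp6v0d2 and Mmp12 did not pass the filter on dim probes.

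General leukocyte and phagocyte genes differed between the knockout samples. In white fat 0 of 21 were above the control mean on knockout array 1 (median -0.82) and 20 of 21 on knockout arrays 2, 3 and 4 (median 1.69), and in brown fat 11 of 21 (median 0.05) and 20 of 21 (median 1.94). Over both samples, 19 had higher means in brown knockout (median 0.97) and 18 in white knockout (median 0.58). None was called by limma, and 2 in brown and none in white fat had an unadjusted p below 0.05. Cd53, a leukocyte tetraspanin, stood at 2.40 ± 0.95 and Fcgr4, an activating Fc receptor, at -1.29 ± 0.54 in brown fat, both with an adjusted p of 0.619. All 21 had lower means in brown than in white control fat (median -1.12), with none called, 2 at an unadjusted p below 0.05. As described above, the lymphocyte genes were high in the same knockout samples, and their part was not tested.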

How the data were processed

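The deposited scanner files hold the linear processed intensity of every spot. Per the file headers they were made with Agilent Feature Extraction 12.0.0.7, which subtracts background within an array, and values were not scaled between arrays. The authors' value table equalled the mean processed intensity of each probe within 0.1% for 41174 of 41174 probes. Per the labels, RNA was prepared with a Qiagen kit and labelled with Cy3.

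From these, control and outlier spots were dropped, spots of a probe averaged, and each array's 75th percentile subtracted on the log2 scale. RefSeq accessions named 28223 probes. Promoters came from RefSeq (GRCm38.p6), and the array design names mm9, so probe coordinates are not given. A probe was kept if 1 group or more had it well above background on all 4 of its arrays, and a gene took its brightest kept probe (49 of 50 member probes passed). For each of 24 array pairs within groups, the differences of bright probes were centred and divided by the scanner error. Their spread was taken as the median absolute deviation, scaled to estimate an SD. It was 0.372 to 0.655 for 9 pairs, which were joined, and 1.10 to 4.26 for the other 15. The 9 samples were fitted as 4 group means in limma 3.58.1 (R 4.3.3), with 5 residual degrees of freedom. The fits were tested on simulated data. Same-numbered arrays of brown and white knockout deviated together (correlations 0.295 to 0.570), but these are 2 pairs of samples, and the other group pairs reached -0.54. Groups of 2 or 3 samples are too small for an outlier test.

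The members, their roles, the companion lists and the other-cell lists were chosen with earlier results of these data known. Full values are given for the resident, lipid-associated and 4 lineage genes, for every called member, and for the 3 largest differences in each direction in each knockout comparison. Companion lists name called genes (up to 4) or the 2 with the smallest p. The alternatives were 16 separate arrays, blocks for sample, replicate number and slide, other background correction, scaling, filter and probe choices, and leaving out arrays.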

Additional observations from a re-analysis of the deposited data

How the results depend on the processing

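Counts of called members and medians are given in the order knockout in brown fat, knockout in white fat, difference of these, brown minus white in knockout, and brown minus white in control mice. With 16 arrays as separate samples the counts were 6, 12, 1, 15 and 18, and with a replicate block 8, 13, 1, 16 and 20, so that the replicate number moved no count by over 1.5 times. With the sample as a random block, 6 and 9 members were called between tissues. Normexp background correction, added after seeing the data, gave 0 and 1 between tissues, the authors' unscaled values 0 and 5, and no filter on dim probes 0 in knockout mice. Without the knockout samples on arrays 2, 3 and 4 the white knockout median was -0.77 and the calls between tissues were 3 and 14. Without the brown control sample of low Ucp1, also added after seeing the data, they were 0 and 0. Leaving out 1 array at a time gave 0 to 4 called members for white knockout, with medians of 0.016 to 0.71. It gave medians of -0.48 to 0.58 for the difference of effects, 0 to 2 calls between tissues in knockout and 0 to 7 in control mice. The cause was not tested, except that repeat arrays narrow the spread when counted apart. Without scaling, the median of all genes moved to 0.31, -0.23, 0.64, 0.25 and -0.43, and the members' median moved with it (0.31, -0.15, 0.84, -0.59 and -1.47). Uncalled members changed sign under at least 1 alternative for 22, 24, 28, 14 and 7 of 36, and none of these values was called on either side. Lyve1 in control mice lost its call only without brown control array 1 (adjusted p = 0.0727), array 4 (0.0798) or the low-Ucp1 sample (0.100). The calls of Trem2 and Mertk were lost there too, and in more settings. With normexp the adjusted p was 0.0551 for Trem2, and 0.0857 in control and 0.0573 in knockout mice for Mertk. Trem2 also lost its call with quantile normalization (0.0501), with no filter (0.0576) and without white control array 3 (0.0504). It lost it as well with the slide as a block (0.230) and without brown knockout array 1, where its difference stayed at -2.34. Mertk in knockout mice also lost its call with unscaled values (0.108) and with no filter (0.0570). The same happened in the fits that leave 1 sample in a knockout group. There its difference was -1.17 without brown knockout array 1 and -1.33 without white knockout array 1. It was -1.28 without the knockout samples on arrays 2, 3 and 4. Among 11 members with several kept probes, Csf1r and Msr1 disagreed in sign for white knockout. The 2 or 3 samples of a group limit every value here.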

Other observations

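Genes that recruit or feed macrophages were measured beside the members, and none of them was called by limma in any comparison. Of 11 tested growth factors and chemokines, 6 had lower means in brown knockout (median -0.07) and 8 in white knockout (median -0.45), with 0 and 1 at an unadjusted p below 0.05. The monocyte chemokine Ccl7 differed by -0.72 ± 0.54 in brown fat (adjusted p = 0.640) and by -1.56 ± 0.59 in white fat (adjusted p = 0.474). Between the tissues of control mice 9 of 11 had lower means in brown fat, with Ccl2 at -1.11 ± 0.43 (adjusted p = 0.189) and the growth factor Csf1 at -0.74 ± 0.32 (adjusted p = 0.225). Of 14 genes linked to inflammation or its control, Arg1 and Il10 among them, 8 were tested. Il6, Nos2, Cxcl2, Ptgs2, Il12b and Il10 did not pass the filter on dim probes. Of those tested, 5 had higher means in brown knockout, with Tnf at 1.47 ± 0.99 (adjusted p = 0.624), and 4 in white knockout, none called and none at an unadjusted p below 0.05.

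Monocyte genes were split in knockout fat, with 5 of 10 lower means in brown (median -0.12) and 6 of 10 in white fat (median -0.48), none called, and 2 and 3 at an unadjusted p below 0.05. Between the tissues of control mice 9 of 10 had lower means in brown fat (median -1.26). Against that direction, Nr4a1, a transcription factor of patrolling monocytes that stimulated cells of many kinds also express, rose in brown control against white control fat (1.35 ± 0.28, adjusted p = 0.0409). Of 7 mast cell and eosinophil genes, 4 had higher means in brown control fat (up to 2.12, with a median of 1.51 over the 7). All 4 had every brown array above every white one (22.2% of all genes), and none of them was called. Ear1, an eosinophil ribonuclease, fell in brown control fat (-1.58 ± 0.23, adjusted p = 0.0120). The neutrophil list rested on 6 of 12 genes, 3 with lower means in knockout in each tissue, none called and none at an unadjusted p below 0.05.

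Chil3 stood apart between brown control arrays 2 and 3, which were otherwise counted as 1 sample: it was 0.90 on array 2 and -2.73 on array 3. Marco and Timd4 differed within control groups too, with Marco at 4.67 on brown control array 1 and -1.17 on array 4, and Timd4 at 0.97 and -3.58 on the same arrays.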
